A study of Homo sapiens with 6 samples.

Results

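The tubulin isotypes are the α- and β-tubulin genes whose products pair into the dimers that build microtubules. The 10 members were found by gene symbol in the deposited count table, which held 22681 genes: the 4 α-tubulin genes TUBA1A, TUBA1B, TUBA1C and TUBA4A, and the 6 β-tubulin genes TUBB, TUBB2A, TUBB2B, TUBB3, TUBB4B and TUBB6. In TPC-1-Len cells given a hairpin against KRT15, the mRNAs of the abundant isotypes TUBA1B, TUBA1C, TUBB and TUBB4B rose, while those of TUBA1A, TUBA4A and TUBB6 fell. Less firmly, TUBB2A fell and the low isotype TUBB3 rose, and neither difference passed the threshold under every setting tried. Summed over the members, α-tubulin reads were 1.40 times and β-tubulin reads 1.35 times those in cells with a control hairpin. The make-up of both families shifted with this: TUBA1B took a larger share of α-tubulin and TUBB4B of β-tubulin, and TUBA1A and TUBB6 took smaller ones.

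A microtubule is a hollow polymer of α/β-tubulin dimers that grows and shortens at its ends and forms the mitotic spindle, the tracks of intracellular transport and the core of cilia. Vertebrates carry several genes for each subunit, whose proteins are alike along the folded body and differ most in an acidic tail at the carboxyl end that lies on the outside of the microtubule. Most cells use a few isotypes at high level, neurons add others, and cells lower the mRNAs of all dimer-forming tubulins when free dimers build up, a loop known as tubulin autoregulation.

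The study asked which genes depend on KRT15, a type I keratin of basal epithelial cells, in thyroid carcinoma cells that resist lenvatinib, an inhibitor of VEGF, FGF, PDGF, KIT and RET receptor kinases. TPC-1 is a human papillary thyroid carcinoma line, and TPC-1-Len is its lenvatinib-resistant derivative, grown in 10 µM lenvatinib throughout. It was transfected by liposome either with an shRNA against KRT15 (shKRT15, 3 cultures) or with a non-targeting shRNA (shNC, 3 cultures), and mRNA was sequenced. The model has limits. Only 1 hairpin stands for KRT15, so other effects of that hairpin and the loss of KRT15 cannot be told apart. The hairpin's sequence and the time from transfection to harvest are not given, and drug-sensitive or drug-free cells were not compared.

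The libraries held 39868231 to 41343780 counted reads in shKRT15 and 36286059 to 36808695 in shNC. KRT15 had 1024, 1044 and 1005 reads in shKRT15 and 1040, 1137 and 1284 in shNC, or 24.7 ± 0.365 and 32.3 ± 3.77 CPM (SD, n = 3 each), a decrease of 23.4%. CPM are read counts relative to library size after scaling by TMM, edgeR's trimmed mean of M-values. Of the thyroid markers, PAX8 was high at 410 CPM (shKRT15) and 375 CPM (shNC). FOXE1 was at 15.3 CPM in shKRT15 and 14.6 CPM in shNC, and HHEX at 7.85 CPM in shKRT15 and 8.64 CPM in shNC. TG was at 0.808 CPM in shKRT15 and 1.58 CPM in shNC. None of these 4 tested markers was called. NKX2-1 and TSHR had at most 1 read in any library, and SLC5A5 had no row. The summed level of 5 epithelial keratin and adhesion markers was 248 to 259 CPM in shKRT15 and 147 to 161 CPM in shNC. KRT18 made that difference, at 215 CPM in shKRT15 and 116 CPM in shNC, while KRT7 (22.9 CPM in shKRT15, 23.4 CPM in shNC) and KRT8 (14.9 CPM in shKRT15, 12.9 CPM in shNC) were not called, and EPCAM and CDH1 were near 0. Summed markers of fibroblasts (7.67 to 8.45 CPM in shKRT15, 17.7 to 23.2 CPM in shNC) and of leukocytes (0.908 to 1.31 CPM in shKRT15, 4.10 to 5.14 CPM in shNC) were low and lower in shKRT15. Of the 3 tested fibroblast markers, COL1A1 and LUM were lower, while PDGFRB was higher, at 3.06 CPM in shKRT15 and 1.47 CPM in shNC. Endothelial markers ran from 0.932 to 1.66 CPM in shKRT15 and from 0.646 to 1.04 CPM in shNC. Their part in the tubulin results was not tested. In bulk RNA a smaller number of cells of a kind and less RNA per cell cannot be told apart.

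All 10 members were expressed well enough to be tested, with at least 261 reads in every library. In edgeR's quasi-likelihood test with Benjamini-Hochberg adjustment over all 14356 genes tested, 5 members were higher in shKRT15, 4 were lower and 1 was not called at an adjusted p under 0.05. Called genes made up 45.0% of all genes tested, 22.1% higher and 23.0% lower. The members' median log2 fold change was 0.10, beside -0.00 over all genes tested. CPM did not overlap between the groups for 8 members, 4 of them higher and 4 lower in shKRT15, beside 54.0% of all genes tested (26.9% higher and 27.1% lower).

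**Figure D1:**
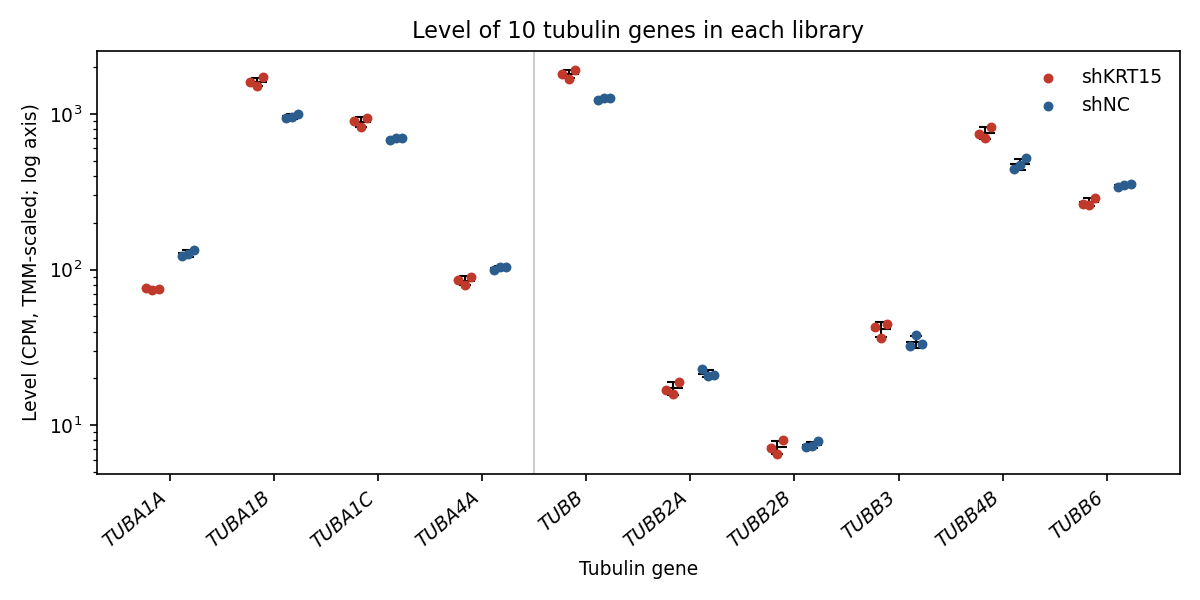
Level of each tubulin gene in each library, in TMM-scaled CPM on a log axis, with shKRT15 left of shNC; bars are the mean and SD of 3 libraries. TUBA1B, TUBA1C, TUBB and TUBB4B lie higher in all shKRT15 libraries, TUBA1A, TUBA4A, TUBB2A and TUBB6 lie lower, and TUBB2B and TUBB3 overlap.

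TUBA1B encodes the α-tubulin most widely used in dividing cells, and it had the largest fold increase of the members. It was at 1598, 1504 and 1717 CPM in shKRT15 and at 937, 957 and 1004 CPM in shNC. Every shKRT15 library lay above every shNC library, with a log2 fold change of 0.73 ± 0.07 (SE; edgeR, adjusted p = 2.79e-07), or 1.66-fold. Its span in GENCODE 29 is chr12:49127782-49131397 on the minus strand, in a cluster with TUBA1A and TUBA1C. Of the 100-base windows of its principal transcript, 37.2% also occur in other tubulin genes and 65.4% in an annotated antisense gene, AC011603.2. Those that occur in genes with a row in the table make up 32.1%. How the counting treated shared reads therefore bears on the level of TUBA1B, its share and its ratio to TUBA1A.

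TUBA1A, the main α-tubulin of developing neurons and a gene mutated in malformations of the cortex, had the largest decrease. It was at 76.5, 74.1 and 75.5 CPM in shKRT15 and at 122, 125 and 134 CPM in shNC. The groups were far apart and each was tight, with a log2 fold change of -0.76 ± 0.07 (SE; edgeR, adjusted p = 1.89e-07), or 0.592 times the shNC level. TUBA1A lies at chr12:49184796-49189324 on the minus strand, and 26.6% of its 100-base windows also occur in other tubulin genes. It and TUBA1B share 97.2% of coding bases in GENCODE release 29, and their mRNAs moved in opposite directions. The TUBA1B to TUBA1A read ratio within a library was 20.9, 20.3 and 22.7 in shKRT15 and 7.66, 7.65 and 7.47 in shNC, so the ratio was 2.81 times as high in shKRT15. This ratio and those given for other pairs were chosen after the values were seen.

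TUBA1C, another widely expressed α-tubulin, was at 896, 820 and 943 CPM in shKRT15 and at 680, 699 and 701 CPM in shNC. All shKRT15 libraries were higher, with a smaller log2 fold change of 0.35 ± 0.07 (SE; edgeR, adjusted p = 0.000559). It lies at chr12:49188736-49274603 on the plus strand and overlaps TUBA1A on the other strand in this annotation. Of its 100-base windows, 11.5% occur in other tubulin genes and 18.6% in an annotated antisense gene, AC125611.3. TUBA4A, which encodes an α-tubulin without a terminal tyrosine, was at 85.8, 79.5 and 89.9 CPM in shKRT15 and at 99.2, 103 and 105 CPM in shNC. All shKRT15 libraries were lower, with a log2 fold change of -0.27 ± 0.07 (SE; edgeR, adjusted p = 0.00743). It lies at chr2:219249711-219278170 on the minus strand, and 25.6% of its 100-base windows are also in STK16 on the other strand.

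The tails of the β-tubulins are encoded where their coding sequences end. The last 60 coding bases and the stop codon are shown for the abundant β isotypes and for the near-identical pair TUBB2A and TUBB2B, because they encode the tail and show how alike the counted transcripts are. They were read from GENCODE release 29 on GRCh38, 5′ to 3′ on the coding strand, and lie at chr6:30724335-30724397 (TUBB, plus strand), chr9:137243494-137243556 (TUBB4B, plus strand), chr18:12326068-12326130 (TUBB6, plus strand), chr6:3153863-3153925 (TUBB2A, minus strand) and chr6:3224751-3224813 (TUBB2B, minus strand). Capitals mark bases that lie in no 15-base stretch shared with the coding sequence of another member.
TUBB: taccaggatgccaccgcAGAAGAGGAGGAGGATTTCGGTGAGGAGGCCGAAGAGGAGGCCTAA
TUBB4B: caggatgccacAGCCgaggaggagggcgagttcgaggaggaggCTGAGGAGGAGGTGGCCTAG
TUBB6: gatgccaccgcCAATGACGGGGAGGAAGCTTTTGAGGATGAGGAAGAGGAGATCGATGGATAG
TUBB2A: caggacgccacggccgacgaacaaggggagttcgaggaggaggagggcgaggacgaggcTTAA
TUBB2B: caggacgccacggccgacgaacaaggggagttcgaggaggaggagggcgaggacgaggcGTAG
TUBB and TUBB6 had 46 and 52 bases of their own in this stretch and TUBB4B 24, while TUBB2A and TUBB2B had 4 each, all at the very end.

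TUBB encodes class I β-tubulin, the β-tubulin of nearly all cells, and had the highest level per kilobase of exon of the 10 members. It was at 1811, 1685 and 1911 CPM in shKRT15 and at 1228, 1264 and 1257 CPM in shNC. The groups were apart in every library, with a log2 fold change of 0.53 ± 0.07 (SE; edgeR, adjusted p = 1.03e-05), or 1.44-fold. TUBB lies at chr6:30720201-30725426 on the plus strand. Of its 100-base windows, 17.1% are also annotated to an antisense gene and 5.10% to other genes with TUB symbols. None of these shared windows occurs in a gene with a row in the table.

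TUBB4B encodes class IVb β-tubulin, which is widely expressed and is a main β-tubulin of cilia. Its level was 740, 697 and 825 CPM in shKRT15 and 441, 472 and 518 CPM in shNC. It rose in every shKRT15 library by the largest fold of the β genes, with a log2 fold change of 0.66 ± 0.08 (SE; edgeR, adjusted p = 3.52e-06), or 1.58-fold. TUBB4B lies at chr9:137241213-137243707 on the plus strand. The read ratio of TUBB4B to TUBB was 0.408 to 0.432 in shKRT15 and 0.359 to 0.412 in shNC, which overlap.

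TUBB6 encodes class V β-tubulin, an isotype whose excess is known to weaken microtubule networks, and it fell. It was at 265, 258 and 290 CPM in shKRT15 and at 339, 349 and 356 CPM in shNC. All shKRT15 libraries were lower, with a log2 fold change of -0.36 ± 0.07 (SE; edgeR, adjusted p = 0.000411). It lies at chr18:12307669-12344320 on the plus strand and shares no 100-base window of its principal transcript with any other annotated gene. The ratio of TUBB to TUBB6 reads was 6.65 ± 0.153 in shKRT15 and 3.59 ± 0.0531 in shNC (SD, n = 3 each), and the ratio of TUBB4B to TUBB6 reads was 2.78 ± 0.0750 in shKRT15 and 1.37 ± 0.0771 in shNC.

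TUBB2A and TUBB2B encode the class II β-tubulins, which are prominent in neurons, and both were low. TUBB2A was at 16.8, 15.9 and 19.1 CPM in shKRT15 and at 22.8, 20.6 and 21.0 CPM in shNC. It was lower in every shKRT15 library, with a log2 fold change of -0.31 ± 0.11 (SE; edgeR, adjusted p = 0.0236). The call was lost without shKRT15 replicate 1 (adjusted p = 0.10), shKRT15 replicate 2 (0.0897) or shNC replicate 1 (0.0960), and with total-count scaling (0.0556). TUBB2B was at 7.11, 6.57 and 8.01 CPM in shKRT15 and at 7.29, 7.33 and 7.90 CPM in shNC. These groups overlapped and the gene was not called, with a log2 fold change of -0.05 ± 0.14 (SE; edgeR, adjusted p = 0.789) whose sign turned under total-count scaling and without shKRT15 replicate 2. The coding sequences of this pair are 98.1% identical, and 54.4% of the 100-base windows of TUBB2A also occur in TUBB2B, so how the counting divided their reads bears on both values. TUBB2A lies at chr6:3153669-3157526 and TUBB2B at chr6:3224261-3231730, both on the minus strand.

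TUBB3 encodes class III β-tubulin, a neuronal isotype that many carcinomas express and that has been linked to poor response to taxanes. It was at 42.9, 36.1 and 44.7 CPM in shKRT15 and at 32.2, 37.9 and 33.2 CPM in shNC. The groups overlapped, since shKRT15 replicate 2 lay below shNC replicate 2. The log2 fold change was 0.26 ± 0.10 (SE; edgeR, adjusted p = 0.0459). The call was lost without shKRT15 replicate 1 (adjusted p = 0.144) or 3 (0.176), without shNC replicate 1 (0.133) or 3 (0.0685), in DESeq2 (0.0550), and with the GC and length trend removed, where the log2 fold change was 0.14 (0.178). TUBB3 lies at chr16:89921392-89938761 on the plus strand, and 89.0% of its 100-base windows are also annotated to a read-through gene that has no row in the table. Markers of neurons summed to 1.01 to 2.10 CPM in shKRT15 and 2.47 to 3.56 CPM in shNC. Of those 10 markers, 8 were in the table and 2 were tested, RBFOX3 and SNAP25, both lower in shKRT15. The other 6 in the table had at most 12 reads in any library: DCX had 12, 4 and 0 in shKRT15 and 4, 0 and 1 in shNC, ELAVL3 had 4, 2 and 4 in shKRT15 and 2, 0 and 3 in shNC, STMN2 had reads in 1 shKRT15 library and none in shNC, SYN1 had 4, 0 and 1 in shKRT15 and 4, 4 and 1 in shNC, and NEFL and NEFM had none in shKRT15. ELAVL4 and INA had no row.

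**Figure D2:**
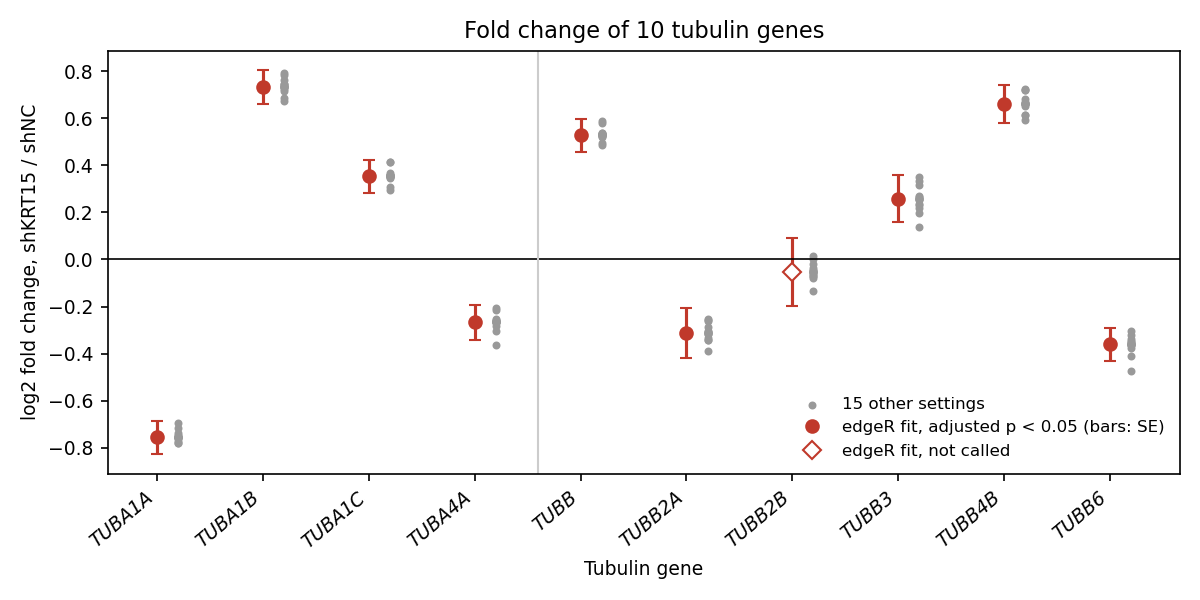
log2 fold change (shKRT15 over shNC) of each tubulin gene. Large symbols are the edgeR estimates with SE, filled where the adjusted p is under 0.05, and grey points are 15 other settings; TUBB2B is the only member whose points lie on both sides of 0.

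Per length, a few isotypes made up nearly all tubulin mRNA in both groups. In shKRT15 the order in CPM per kilobase of exon was TUBB (536 ± 33.7), TUBA1B (449 ± 29.8), TUBB4B (357 ± 30.9), TUBA1C (191 ± 13.4) and TUBB6 (65.8 ± 3.99; SD, n = 3), and in shNC these 5 were at 372 ± 5.68, 270.3 ± 9.65, 226 ± 18.2, 149.8 ± 2.49 and 84.5 ± 2.14. Neighbours in that order did not overlap in either group. The lower 5 followed in the order TUBA1A (22.0 ± 0.354), TUBA4A (20.9 ± 1.28), TUBB2A (10.0 ± 0.949), TUBB3 (9.30 ± 1.02) and TUBB2B (3.29 ± 0.333) in shKRT15. In shNC they were at 37.2 ± 1.85 (TUBA1A), 25.1 ± 0.687 (TUBA4A), 12.4 ± 0.679 (TUBB2A), 7.78 ± 0.692 (TUBB3) and 3.42 ± 0.156 (TUBB2B). In shKRT15, TUBA1A and TUBA4A overlapped, as did TUBB2A and TUBB3, while in shNC each member was clear of the next. The order depends on the length assigned to a gene: per kilobase of the principal transcript TUBA1B stood first, at 987 in shKRT15 and 594 in shNC, above TUBB at 675 in shKRT15 and 468 in shNC, and TUBB3 stood above TUBB2A.

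Total tubulin mRNA was higher in shKRT15. The 4 α members summed to 2656, 2478 and 2826 CPM in shKRT15 and to 1839, 1885 and 1945 CPM in shNC, and the 6 β members summed to 2883, 2698 and 3097 CPM in shKRT15 and to 2070, 2151 and 2193 CPM in shNC. Neither sum overlapped between groups. With 3 libraries against 3, an exact two-sided permutation test cannot go below p = 0.1, so sums, shares and ratios are given with their spread. The members took 0.565 ± 0.0263% of all reads in shKRT15 and 0.394 ± 0.00975% in shNC. The ratio of α to β reads was 0.917 ± 0.00466 in shKRT15 and 0.884 ± 0.00651 in shNC (SD, n = 3 each), so both subunits were higher together, with α slightly more so.

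Within the α family the share of TUBA1B was larger in shKRT15 and the shares of the other α genes were smaller. Shares are the percent of the family's reads per kilobase of exon in a library. TUBA1B held 65.4, 65.9 and 66.0% in shKRT15 and 55.9, 55.7 and 56.5% in shNC, a difference of 9.70 percentage points. TUBA1C held 28.0 ± 0.293% in shKRT15 and 31.1 ± 0.525% in shNC (SD, n = 3 each), so its share was smaller although its level rose. TUBA1A held 3.27, 3.39 and 3.03% in shKRT15 and 7.63, 7.61 and 7.90% in shNC. TUBA4A held 3.05 ± 0.0239% in shKRT15 and 5.20 ± 0.0569% in shNC. The groups did not overlap for any of these 4 shares, beside 54.0% of all genes tested whose CPM did not overlap. That percentage is for levels, and shares cancel what is common to a library. A background for shares was not computed.

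Within the β family the shares of TUBB4B and TUBB were larger and that of TUBB6 was smaller. TUBB4B held 35.9, 36.1 and 37.0% in shKRT15 and 30.7, 31.5 and 33.6% in shNC. TUBB held 54.7 ± 0.649% in shKRT15 and 52.7 ± 1.24% in shNC, a difference of 1.94 points that was 3.22 points per kilobase of the principal transcript and 3.85 points in plain reads, and that ran from 1.24 points without shNC replicate 3 to 2.43 points without shNC replicate 1. TUBB6 held 6.60, 6.86 and 6.67% in shKRT15 and 12.1, 12.0 and 11.9% in shNC. The minor isotypes each held a smaller share in shKRT15, although the level of TUBB2B was not called and that of TUBB3 was called higher. TUBB2A held 1.02 ± 0.0268% in shKRT15 and 1.76 ± 0.153% in shNC, TUBB2B 0.335 ± 0.00994% in shKRT15 and 0.484 ± 0.0117% in shNC, and TUBB3 0.946 ± 0.0508% in shKRT15 and 1.10 ± 0.0950% in shNC (SD, n = 3 each). None of the 6 β shares overlapped between groups, although the CPM of TUBB2B and TUBB3 did. The 54.0% of all genes tested whose CPM did not overlap is again for levels, not for shares. Shares of a family add to a whole, so their differences are tied to each other. Under every length tried, each of the 10 differences kept its sign.

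**Figure D3:**
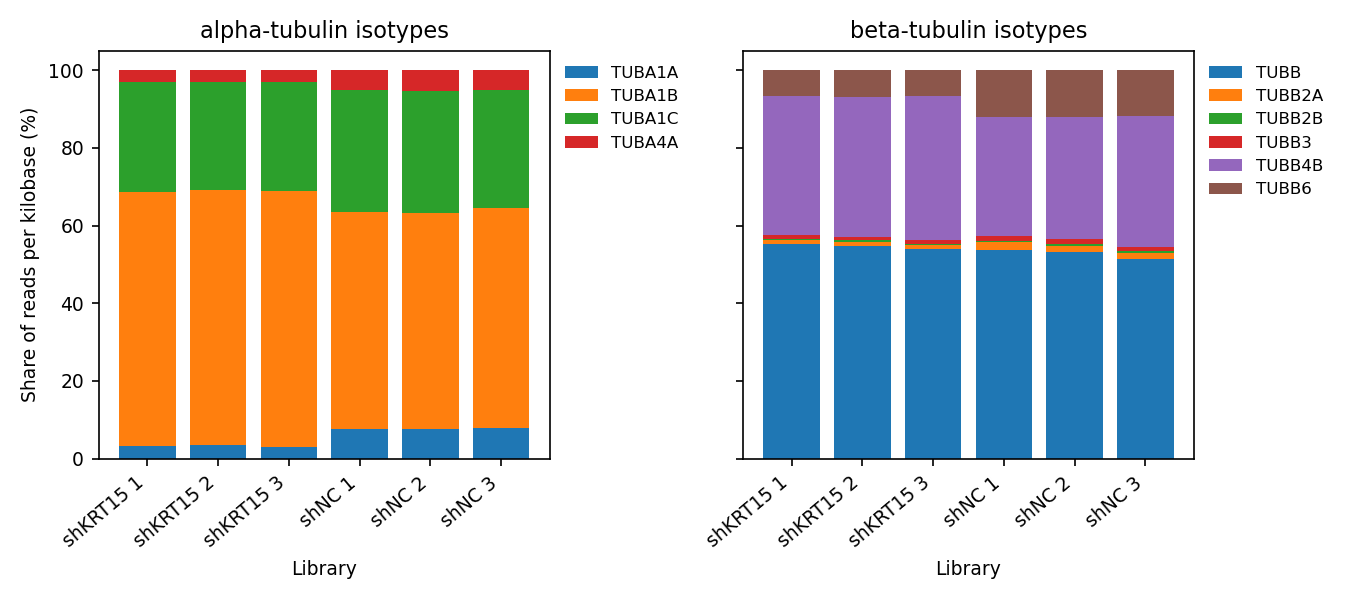
Share of each isotype in the α- and β-tubulin reads per kilobase of exon of each library, in percent, shKRT15 left of shNC. The TUBA1B band is taller in the shKRT15 libraries (65.7% against 56.0% on average) and the TUBB6 band is shorter (6.71% against 12.0%).

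Promoters are shown for the member of each family with the largest rise and the one with the largest fall, so that the sequences upstream of genes that moved in opposite directions can be read side by side. They are RefSeq sequences on GRCh38.p14, from 250 bases before to 50 bases after an annotated start, 5′ to 3′ on the gene's strand, and capitals mark CCAAT or its reverse complement ATTGG, the CCAAT box bound by the factor NF-Y. TUBA1B lies at chr12:49131346-49131645 (minus strand), TUBA1A at chr12:49189031-49189330 (minus), TUBB4B at chr9:137241037-137241336 (plus), and the TUBB6 starts at chr18:12307419-12307718 and chr18:12307991-12308290 (plus).
TUBA1B: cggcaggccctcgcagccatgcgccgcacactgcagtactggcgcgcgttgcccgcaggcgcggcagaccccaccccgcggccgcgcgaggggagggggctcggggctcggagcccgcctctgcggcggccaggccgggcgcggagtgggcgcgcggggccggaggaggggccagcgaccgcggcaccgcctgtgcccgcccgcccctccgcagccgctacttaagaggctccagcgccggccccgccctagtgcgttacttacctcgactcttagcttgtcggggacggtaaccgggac
TUBA1A: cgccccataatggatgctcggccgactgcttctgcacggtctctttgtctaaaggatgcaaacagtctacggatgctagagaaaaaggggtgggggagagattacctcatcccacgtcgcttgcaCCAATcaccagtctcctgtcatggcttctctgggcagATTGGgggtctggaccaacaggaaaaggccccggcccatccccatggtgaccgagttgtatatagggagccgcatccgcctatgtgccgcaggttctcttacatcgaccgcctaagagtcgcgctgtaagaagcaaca
TUBB4B: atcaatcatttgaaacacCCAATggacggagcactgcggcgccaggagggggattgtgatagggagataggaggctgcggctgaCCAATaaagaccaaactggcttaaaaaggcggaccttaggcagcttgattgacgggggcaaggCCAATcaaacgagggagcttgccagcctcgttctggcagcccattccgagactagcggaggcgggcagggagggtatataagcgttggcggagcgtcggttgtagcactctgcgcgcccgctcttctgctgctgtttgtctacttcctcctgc
TUBB6, upstream start: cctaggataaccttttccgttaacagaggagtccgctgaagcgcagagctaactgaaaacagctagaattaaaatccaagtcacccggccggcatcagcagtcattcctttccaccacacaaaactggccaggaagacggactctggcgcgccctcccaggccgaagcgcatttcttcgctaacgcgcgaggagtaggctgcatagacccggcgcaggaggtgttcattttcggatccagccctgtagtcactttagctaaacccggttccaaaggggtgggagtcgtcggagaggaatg
TUBB6, downstream start: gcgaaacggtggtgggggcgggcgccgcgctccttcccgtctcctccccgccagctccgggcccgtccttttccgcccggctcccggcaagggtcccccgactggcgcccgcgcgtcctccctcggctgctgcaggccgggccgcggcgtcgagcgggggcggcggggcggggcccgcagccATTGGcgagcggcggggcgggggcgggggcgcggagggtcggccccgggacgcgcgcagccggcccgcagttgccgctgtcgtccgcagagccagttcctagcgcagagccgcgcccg
A CCAAT box on either strand was found 3 times in TUBB4B, 2 times in TUBA1A, 1 time at the downstream TUBB6 start and not in the TUBA1B window. The 10 members had 15 promoters in the table, of which 9 held CCAAT, beside 34.6% of all 35116 promoters. The TUBA1C windows at chr12:49227676-49227975 and chr12:49227769-49228068 overlap and hold the same CCAAT, so that site counts for both. Those 9 promoters belong to 7 members: TUBA1A, TUBB2B and TUBB6, which did not rise, and TUBA1C, TUBB, TUBB3 and TUBB4B. The GC box GGGCGG was in 9 of the 15, beside 45.0% of all promoters. The element TTTGAA or TTCGAA, known as the CHR of genes expressed late in the cell cycle, was in 5 of the 15, beside 16.4% of all, and these 5 belong to TUBA1C, TUBB3 and TUBB4B. The E box CACGTG was in 2 of the 15 (7.26% of all) and TATAAA in 1, that of TUBB2A (11.5% of all). All motifs were searched on both strands and were chosen after the expression values were seen.

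The genes whose levels ran most like those of the leading isotypes were not tubulins. Likeness was the root mean square difference of centred log2 CPM over the 6 libraries, among 9336 genes that averaged 10 CPM or more, and it is a description. For TUBA1B the nearest were LMNA (0.0120), which encodes lamin A/C, PDLIM1 (0.0242) and TRIM26 (0.0260), and TUBB4B ranked 29th. For TUBB they were NUP93 (0.0200), a nuclear pore subunit, SF3B2 (0.0223), a splicing factor subunit, and TRIM47 (0.0233), and TUBA1C ranked 428th.

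Of the other tubulin genes, TUBA8 and the γ-tubulin TUBG1 were higher in shKRT15. The table held 16 further genes with TUBA, TUBB, TUBG, TUBD or TUBE symbols, the γ-tubulin complex subunits included, and 10 of them were tested. TUBA8, a divergent α-tubulin of testis and muscle, had 185, 206 and 169 reads in shKRT15 and 28, 60 and 40 in shNC, a log2 fold change of 1.91 ± 0.27 (SE; edgeR, adjusted p = 1.76e-05). The groups did not overlap, but at 4.50 CPM in shKRT15 and 1.20 CPM in shNC it stayed far below the main α genes. TUBE1, ε-tubulin of the centriole, was at 16.2 ± 2.53 CPM in shKRT15 and 22.4 ± 1.96 CPM in shNC, with a log2 fold change of -0.47 ± 0.12 (SE; adjusted p = 0.00445) that was no longer called with the GC and length trend removed (-0.12, adjusted p = 0.352). TUBD1 (-0.30, adjusted p = 0.233) and TUBG2 (-0.12, adjusted p = 0.515) were not called. The remaining α and β genes had too few reads to test. TUBB4A had 48 reads over the shKRT15 libraries and 2 over the shNC libraries, a depth-adjusted ratio of 20.7 with an exact 95% interval of 5.43 to 176, and TUBB8 had 39 in shKRT15 and 11 in shNC, a ratio of 3.06 (1.54 to 6.62). TUBB1 had 1 read in shKRT15 and 16 in shNC (0.0539, 0.00129 to 0.347). TUBAL3 had 18 reads in shKRT15 and 15 in shNC (1.04, 0.493 to 2.21). TUBA4B and TUBA3D had no read in shKRT15 and 10 and 8 in shNC, those of TUBA3D all in shNC replicate 3. These intervals cover counting error only.

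New microtubules start from ring complexes of γ-tubulin, and the share of its genes that was called was close to that of all genes. Of 11 tested ring-complex genes, 5 were higher and none was lower, beside 45.0% of all genes tested called (22.1% higher), with a median log2 fold change of 0.16. TUBGCP2 was at 85.8 ± 5.49 CPM in shKRT15 and 62.6 ± 4.39 CPM in shNC (0.46 ± 0.08, adjusted p = 0.000215), and TUBG1, the γ-tubulin itself, was at 78.1 ± 1.65 CPM in shKRT15 and 62.4 ± 2.00 CPM in shNC (0.32 ± 0.07, adjusted p = 0.00189; SD, n = 3; edgeR). TUBGCP4 (0.46, adjusted p = 0.00393), TUBGCP3 (0.43, 0.00509) and TUBGCP5 (0.34, 0.00959) were called too, and TUBGCP6 (-0.12, 0.418) was not.

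Genes that fold tubulin moved in both directions. Newly made tubulin is captured by prefoldin, folded by the chaperonin CCT and joined into dimers by the cofactors TBCA to TBCE with the small GTPase ARL2. Of 7 tested cofactor genes 3 were higher and 1 was lower (median 0.01), beside 45.0% of all genes tested called in either direction. TBCD, which holds β-tubulin during dimer assembly, was at 70.2 ± 6.80 CPM in shKRT15 and 40.1 ± 0.923 CPM in shNC (0.81 ± 0.09; edgeR, adjusted p = 9.73e-07), and ARL2 rose by 0.53 (adjusted p = 0.000191). TBCE, which acts on α-tubulin, rose by 0.24 (adjusted p = 0.0170), a call that was lost without shKRT15 replicate 1 (0.0576) or 3 (0.0507) or shNC replicate 1 (0.0704) or 2 (0.0549). TBCA, a β-tubulin cofactor, had a log2 fold change of -0.32 (adjusted p = 0.00725), which lost its call without shKRT15 replicate 1 (0.0662) and turned to 0.22 (adjusted p = 0.0317) with the GC and length trend removed. Of 14 prefoldin and CCT genes 2 were higher, 3 lower and 9 not called (median -0.04). The prefoldin genes PFDN1 (-0.43, adjusted p = 0.000346) and PFDN2 (-0.50, 0.000797) fell, and the chaperonin gene CCT7 rose (0.30, 0.00216). CCT8 (-0.21, 0.0258) lost its call without shKRT15 replicate 1 (0.110) or 3 (0.119) or shNC replicate 2 (0.0801), with total-count scaling (0.124) and with the trend removed (0.471).

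Tubulin mRNA is degraded through TTC5, which reads the start of the nascent tubulin chain, and SCAPER, which brings in the deadenylase complex CCR4-NOT. Of 12 tested genes of this route 4 were higher and 2 lower (median 0.08), near the 45.0% called over all genes. TTC5 was at 18.2 ± 1.47 CPM in shKRT15 and 22.9 ± 2.47 CPM in shNC (SD, n = 3 each). It fell (-0.33 ± 0.11, edgeR, adjusted p = 0.0212), as did CNOT2 (-0.26, 0.0121), and SCAPER was not called (-0.26, 0.0694). The calls of TTC5 and CNOT2 were not followed through the other settings. The scaffold gene CNOT1 (0.62, adjusted p = 2.97e-05), CNOT11 (0.47, 3.59e-05) and CNOT10 (0.40, 0.00137) rose. CNOT3 (0.30, 0.0107) lost its call without shKRT15 replicate 1 (0.0502) or shNC replicate 2 (0.0503) and with the trend removed (0.0542).

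Enzymes that modify tubulin were mixed. Of 20 tested genes 6 were higher, 2 lower and 12 not called (median 0.00), a share called that was under the 45.0% of all genes. AGBL5, a carboxypeptidase that removes branching glutamates, was at 33.2 ± 1.28 CPM in shKRT15 and 18.4 ± 0.868 CPM in shNC (SD, n = 3 each; 0.85 ± 0.09; edgeR, adjusted p = 1.21e-06). TPGS2, a subunit of the tubulin polyglutamylase complex (0.59, adjusted p = 4.19e-06), and TTLL12, a tyrosine ligase-like protein (0.61, 1.01e-05), also rose. AGTPBP1, which trims polyglutamate chains, fell (-0.40, 0.00112). TTL, the ligase that restores the terminal tyrosine of α-tubulin, was not called at 84.8 ± 1.49 CPM in shKRT15 and 93.8 ± 7.19 CPM in shNC (adjusted p = 0.135).

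Genes of proteins that act on the polymer moved in both directions, with TACC3, STMN1 and KIF2C the calls with the smallest p. Of 14 plus-end and polymerizing genes 5 were higher and 4 lower (median 0.07), beside 45.0% of all genes called. TACC3 was at 138 ± 4.88 CPM in shKRT15 and 60.2 ± 2.50 CPM in shNC (1.20 ± 0.07; edgeR, adjusted p = 8.72e-10), and its partner CKAP5, a polymerase that adds dimers, at 198 ± 4.43 CPM in shKRT15 and 119.7 ± 11.6 CPM in shNC (0.73 ± 0.08, adjusted p = 7.28e-07). MAPRE2 rose (0.52, 7.53e-05), the linker gene CLIP2 fell (-0.62, 6.35e-05), and MAPRE1, the gene of the end-binding protein EB1, was not called (0.03, 0.785). Of 13 stathmin, severing and depolymerizing genes 5 were higher and 3 lower (median 0.00). STMN1, whose protein sequesters dimers, was at 455 ± 15.1 CPM in shKRT15 and 225 ± 16.0 CPM in shNC (1.02 ± 0.07, adjusted p = 5.42e-09), and the depolymerizing kinesin KIF2C (1.04, 1.51e-08) and STMN3 (1.34, 0.00105) rose too, while the katanin gene KATNAL1 fell (-0.64, 0.000828). Of 12 lattice-binding genes 3 were higher, 1 lower and 8 not called (median 0.15). EML4 (0.60, adjusted p = 6.08e-05) and MAP4 (0.31, 0.00273), the main lattice-binding MAP outside neurons, rose, and MAP1S fell (-0.45, 0.000318). MAP1A (1.41, 0.0375) was low and lost its call without shKRT15 replicate 2 (0.0733) or 3 (0.160) or shNC replicate 2 (0.106) or 3 (0.10).

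**Figure D4:**
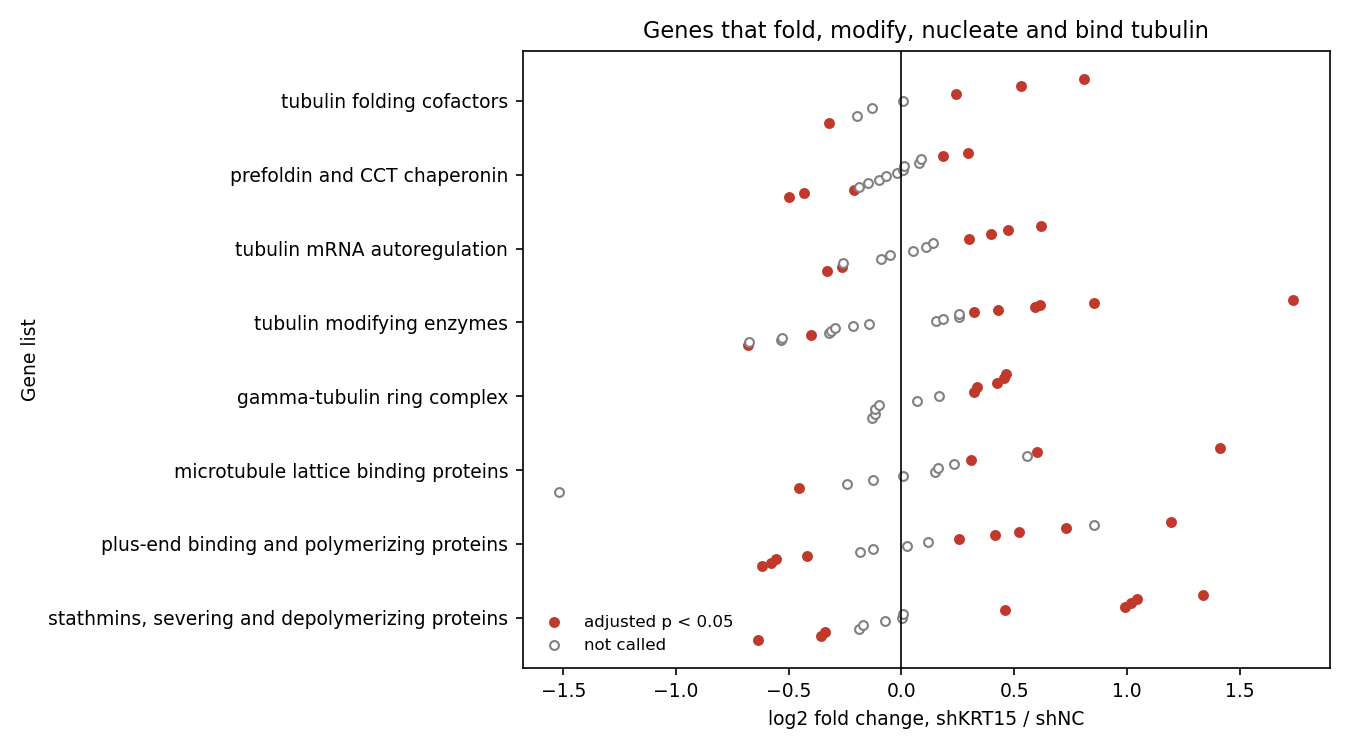
log2 fold change (shKRT15 over shNC) of every tested gene of 8 lists around tubulin, 1 point per gene, filled where the edgeR adjusted p is under 0.05. The γ-tubulin ring complex is the only list here without a called gene below 0, and TACC3, STMN1, KIF2C and STMN3 are among the genes above 1.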

How the data were processed

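The values the authors deposited are counts of reads, whole numbers for each gene and library that were not normalized, as the totals show. Per the submitters' processing notes the build was GRCh38; which aligner, counter, gene annotation and strand mode were used is not given in the sources used here, so reads of overlapping genes on opposite strands may not be separated and reads of near-identical isotypes may have been divided between them. Libraries were grouped by their titles. The labels call the libraries biological replicates without naming separate transfections, so a p-value here reflects variation among these 6 libraries, which may be technical, and they name no batch. No library pair agreed within sampling noise (chi-square per degree of freedom 6.05 to 29.0 within a group, 169 to 195 between groups).

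Counts were tested with edgeR 4.0.16 (R 4.3.3; glmQLFit, robust, TMM, group only) after filterByExpr (minimum count 10, minimum total 15), which kept 14356 genes, and adjusted by Benjamini-Hochberg over all of them. The fit was also run on simulated counts in which far fewer genes changed than were called here. That run does not show how the fit behaves when so many genes differ. SE of a log2 fold change comes from that fit. Shares used the union of GENCODE 29 exons of each gene. Coding identity came from global alignment with Biopython 1.88, and shared windows from 100-base stretches of principal transcripts searched in all GENCODE transcripts.

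The members and lists were chosen with earlier results of these data known. Genes named were all members, the 4 smallest p-values per list, other tubulin genes averaging 1 CPM or more and the 3 genes most like TUBA1B and TUBB. TTC5, CNOT2, SCAPER, TTL, MAPRE1, TUBB1, TUBB4A, TUBB8, TUBAL3, TUBA4B and TUBA3D were added after their values were seen. Permutation tests of the sums and shares had been planned and are not reported beyond their smallest possible p. Alternatives were DESeq2 1.42.0, limma-voom (limma 3.58.1), other scalings and filters, a replicate block, removal of the GC and length trend (known for 91.4% of tested genes), other gene lengths and leaving out each library. Amino acid sequences were not used here, and some sequences and 1 marker gene are not reported here.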

Additional observations from a re-analysis of the deposited data

How the results depend on the processing

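Under 15 other settings 7 to 9 tubulin genes were called, and TUBA1A, TUBA1B, TUBA1C, TUBA4A, TUBB, TUBB4B and TUBB6 kept their direction and call in each. Leaving out 1 library at a time gave 7 to 9 tubulin genes and 5194 to 6747 genes of all, log2 ratios of 0.44 to 0.54 for summed α-tubulin and 0.38 to 0.48 for summed β-tubulin, and a shift between isotypes, the summed gain of the isotypes whose share was larger, of 9.54 to 9.93 percentage points for α and 6.19 to 6.46 for β. With all libraries that shift was 9.70 points for α and 6.32 for β. Per kilobase of the longest transcript it was 10.5 for α and 8.79 for β, and per kilobase of the principal transcript, a length added after the data were seen, 8.33 for β; the length alone differs between these. TUBB2B, not called in any setting, turned to 0.00358 under total-count scaling and ran from -0.13 to 0.0159 with 1 library left out, above 0 without shKRT15 replicate 2, and TBCA to 0.22 with the GC and length trend removed. Replicate numbers gave no clear pairing of the libraries: same-numbered deviations correlated at 0.0188, -0.00742 and 0.0462. For shKRT15 replicates 1 and 3 the same-numbered shNC library correlated best, and for replicate 2 it was shNC replicate 1 (0.0306). With the replicate number as a block 9 tubulin genes and 6733 genes of all were called. Total-count scaling moved the median of all genes by 0.06 and the trend removal by 0.05. Depth limits TUBB2B, with as few as 261 reads in a library, more than the abundant isotypes.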
